A study of Mus musculus with 16 samples.

Results

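The Hox genes encode homeodomain transcription factors that stand in 4 clusters, Hoxa, Hoxb, Hoxc and Hoxd. They were examined here in RNA sequencing libraries of mouse preadipocytes from brown and white fat, cultured with or without Fgf8b, a splice form of fibroblast growth factor 8. Members were taken by name: every gene symbol made of Hox, a cluster letter and a number. This gave 39 genes of 29060 genes with a symbol, namely 11 in the Hoxa, 10 in the Hoxb, 9 in the Hoxc and 9 in the Hoxd cluster. Of these, 32 reached 0.5 RPKM (reads scaled to transcript length and to library depth) in at least 4 of the 16 libraries and were tested. The cells were grown from the stromal-vascular fraction, the part of fat that remains when the fat-filled adipocytes are removed, of interscapular brown or inguinal white fat. All 4 groups came from C57BL/6N mice that carry a UCP1 reporter. Each depot gave 4 control and 4 Fgf8b libraries. Age and sex of the mice, and the dose and duration of Fgf8b, were not given in the sources used here. Library labels call the cells primary adipocytes, whereas the title and the design text call them preadipocytes. Expression of adipocyte genes was low: Lep and Retn, the genes of leptin and resistin, were listed at 0 in every library, and the 9 adipocyte markers summed to between 12.8 and 29.0 RPKM. The 17 preadipocyte and fibroblast markers summed to between 2161.5 and 6417 RPKM, less with Fgf8b in either depot. Of these markers 7 rose and 10 fell with Fgf8b in white cells, and 3 rose and 12 fell in brown cells. Of all genes tested 36.3% rose and 29.5% fell in white cells, and 36.7% rose and 34.7% fell in brown cells. Endothelial, muscle and Schwann cell marker sums were lower with Fgf8b too: endothelial markers had 11.1 to 11.998 RPKM in white control, 2.398 to 2.97 in white Fgf8b, 7.65 to 8.92 in brown control and 1.505 to 1.89 RPKM in brown Fgf8b libraries. Leukocyte marker sums were higher with Fgf8b, 5.26 to 6.05 and 6.81 to 7.53 RPKM in white control and white Fgf8b libraries. In brown control and brown Fgf8b libraries they were 6.38 to 8.91 and 9.31 to 10.1 RPKM. Single markers were mixed: of 4 leukocyte markers tested 2 rose and 2 fell in either depot. Of 5 endothelial markers tested 1 rose and 3 fell in either depot. Schwann cell marker sums were 8.75 to 10.4 RPKM in white control and 13.4 to 15.8 RPKM in brown control libraries. Skeletal muscle marker sums were 5.057 to 7.503 RPKM in white control and 8.54 to 10.59 RPKM in brown control libraries. Of 2 muscle markers tested 1 was higher and 0 were lower in brown control cells, where 18.1% of all genes tested were higher and 15.9% lower. Myod1, 1 of the 8 muscle markers, was listed at 0 in every library. The part of endothelial, muscle, Schwann and leukocyte cells in the Hox results was not tested.

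Hox genes give cells their position along the body axis during development. Within a cluster they are numbered from 1 to 13 by relatedness, and genes of the same number in different clusters are paralogs. Low-numbered genes lie at the 3′ end, are switched on first and act from the hindbrain and neck downward. High-numbered genes lie at the 5′ end and act in the lower trunk, the limbs and the tail. Much of this pattern is kept in connective tissue cells of the adult, including those of fat, and is held by Polycomb and Trithorax chromatin complexes. Interscapular fat lies between the shoulder blades and inguinal fat lies by the hind limb.

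Library depth, recovered from the size of the steps between low values, was 13740000 to 20130000 reads, rounded. For pairs of libraries of a group, chi-square divided by its degrees of freedom was 1.24 to 2.03, except with brown control 15, where it was 5.31 to 5.74. Numbers in the labels run from 1 to 8 for white and from 9 to 16 for brown cells, so depot of origin and anything that followed the numbering cannot be told apart. In addition, 145 of the 299 transcript accessions listed more than once had unequal values in white libraries and 0 had in brown libraries. None of the 151 Hox entries was among them. The design text names 3 cultures per depot and the groups hold 4 libraries each, so libraries may share a culture and the p-values may measure technical spread.

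Promoter sequence was available for 22 Hox genes in RefSeq's GRCm38.p6 table. Windows are shown for 5 Hoxa genes, because within this cluster the depot difference changed sign between neighbouring genes: Hoxa2 and Hoxa5 were higher in brown cells, and Hoxa9, Hoxa10 and Hoxa11 were lower, as described below. Each window holds the 250 bases before a transcription start, 5′ to 3′ on the gene's strand, and overlaps no annotated exon on that strand. All lie on the minus strand, at chr6:52164832-52165081 (Hoxa2), chr6:52204588-52204837 (Hoxa5), chr6:52227371-52227620 (Hoxa9), chr6:52234940-52235189 and chr6:52240855-52241104 (Hoxa10, with 2 starts) and chr6:52245811-52246060 (Hoxa11). Capitals mark matches on either strand to CCAAT, to TATAAA, to CCGGAA (the core of ETS factor sites), to the PBX-HOX site TGATNNAT, to the CDX site TTTATNG, or to a repeat of AGGTCA spaced by 5 bases, read by retinoic acid receptors. TTTATNG can overlap TATAAA read on the other strand.
Hoxa2: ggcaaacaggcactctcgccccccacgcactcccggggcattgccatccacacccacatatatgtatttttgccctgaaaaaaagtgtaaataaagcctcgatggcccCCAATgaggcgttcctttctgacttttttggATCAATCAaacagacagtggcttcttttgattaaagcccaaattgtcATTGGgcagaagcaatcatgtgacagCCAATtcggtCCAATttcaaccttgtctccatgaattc
Hoxa5: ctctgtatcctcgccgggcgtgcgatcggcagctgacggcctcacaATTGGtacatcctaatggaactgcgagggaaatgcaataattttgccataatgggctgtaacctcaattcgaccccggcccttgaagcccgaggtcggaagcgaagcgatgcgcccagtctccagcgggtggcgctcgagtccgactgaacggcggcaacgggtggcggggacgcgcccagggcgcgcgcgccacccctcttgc
Hoxa9: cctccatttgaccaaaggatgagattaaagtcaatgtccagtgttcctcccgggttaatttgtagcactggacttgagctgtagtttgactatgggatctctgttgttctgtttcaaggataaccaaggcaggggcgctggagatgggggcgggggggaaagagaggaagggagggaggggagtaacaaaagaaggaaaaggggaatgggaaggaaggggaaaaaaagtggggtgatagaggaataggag
Hoxa10, first start: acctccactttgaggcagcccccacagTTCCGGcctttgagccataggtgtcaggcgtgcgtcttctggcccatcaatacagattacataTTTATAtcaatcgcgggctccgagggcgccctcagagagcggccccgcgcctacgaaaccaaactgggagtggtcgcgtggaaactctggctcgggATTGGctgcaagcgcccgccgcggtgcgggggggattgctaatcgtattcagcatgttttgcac
Hoxa10, second start: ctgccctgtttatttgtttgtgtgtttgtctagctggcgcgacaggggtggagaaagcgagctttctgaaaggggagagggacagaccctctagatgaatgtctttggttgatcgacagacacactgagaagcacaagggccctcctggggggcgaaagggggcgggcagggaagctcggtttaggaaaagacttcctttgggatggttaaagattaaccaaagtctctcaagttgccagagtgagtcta
Hoxa11: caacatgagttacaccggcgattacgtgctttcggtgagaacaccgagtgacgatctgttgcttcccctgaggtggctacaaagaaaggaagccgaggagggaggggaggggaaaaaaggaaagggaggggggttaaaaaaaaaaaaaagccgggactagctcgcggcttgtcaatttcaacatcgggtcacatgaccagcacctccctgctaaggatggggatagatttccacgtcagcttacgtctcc

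CCAAT was found in 14 of the 24 Hox windows (58.3%) and in 33.9% of the 32851 promoters of the table. Hoxa2 holds several CCAAT matches and a PBX-HOX match, Hoxa5 has a CCAAT match, and the window printed first for Hoxa10 has matches to the CCAAT box, the TATA box and the ETS core. The windows of Hoxa9 and Hoxa11 hold none of the letters searched. TGATNNAT stood in 4 of the 24 Hox windows (16.7%) and in 7.68% of all promoters, and the retinoic acid repeat was in 0 Hox windows and in 0.00913% of all. Hox windows held between 2 and 35 CG dinucleotides with a median of 12.5, against a median of 6 over all promoters. These matches are a description of the sequence and were not tested against the expression values. Genes with no entry in the table included Hoxa4, Hoxb2, Hoxb3, Hoxb5, Hoxb6, Hoxb7, Hoxb9, Hoxb13, Hoxc5, Hoxc6, Hoxc8, Hoxc9, Hoxc10, Hoxc11, Hoxc12 and Hoxc13.

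Hox expression covered most of the Hoxa, Hoxb and Hoxc clusters in both depots. The genes detected differed between depots in the Hoxa and Hoxc clusters. Levels given below are RPKM of a gene's most abundant RefSeq entry, which is per length and so can be compared between genes. Detection was read from the sum over a gene's entries, at 0.5 RPKM in all 4 libraries of a group. By that measure 31 Hox genes were detected in white control and white Fgf8b cells, 29 in brown control and 28 in brown Fgf8b cells. In the Hoxa cluster detection reached Hoxa11 in white cells and Hoxa10 in brown cells. All 9 Hoxc genes were detected in white cells. In brown control cells Hoxc11 dropped out, and in brown Fgf8b cells Hoxc12 and Hoxc13 did. The Hoxb and Hoxd clusters were detected up to Hoxb9 and Hoxd9 in every group. Of the Hoxd cluster only Hoxd3, Hoxd4, Hoxd8 and Hoxd9 were detected. These edges depend on the measure, since the sum grows with the number of entries, of which Hoxc13 has 1. At 0.25 RPKM all 9 Hoxc genes were detected in every group. With RefSeq entries only, 29 genes reached 0.5 RPKM in white control and white Fgf8b, 26 in brown control and 25 in brown Fgf8b cells. The colour map of 38 genes shows the levels by library.

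**Figure D1:**
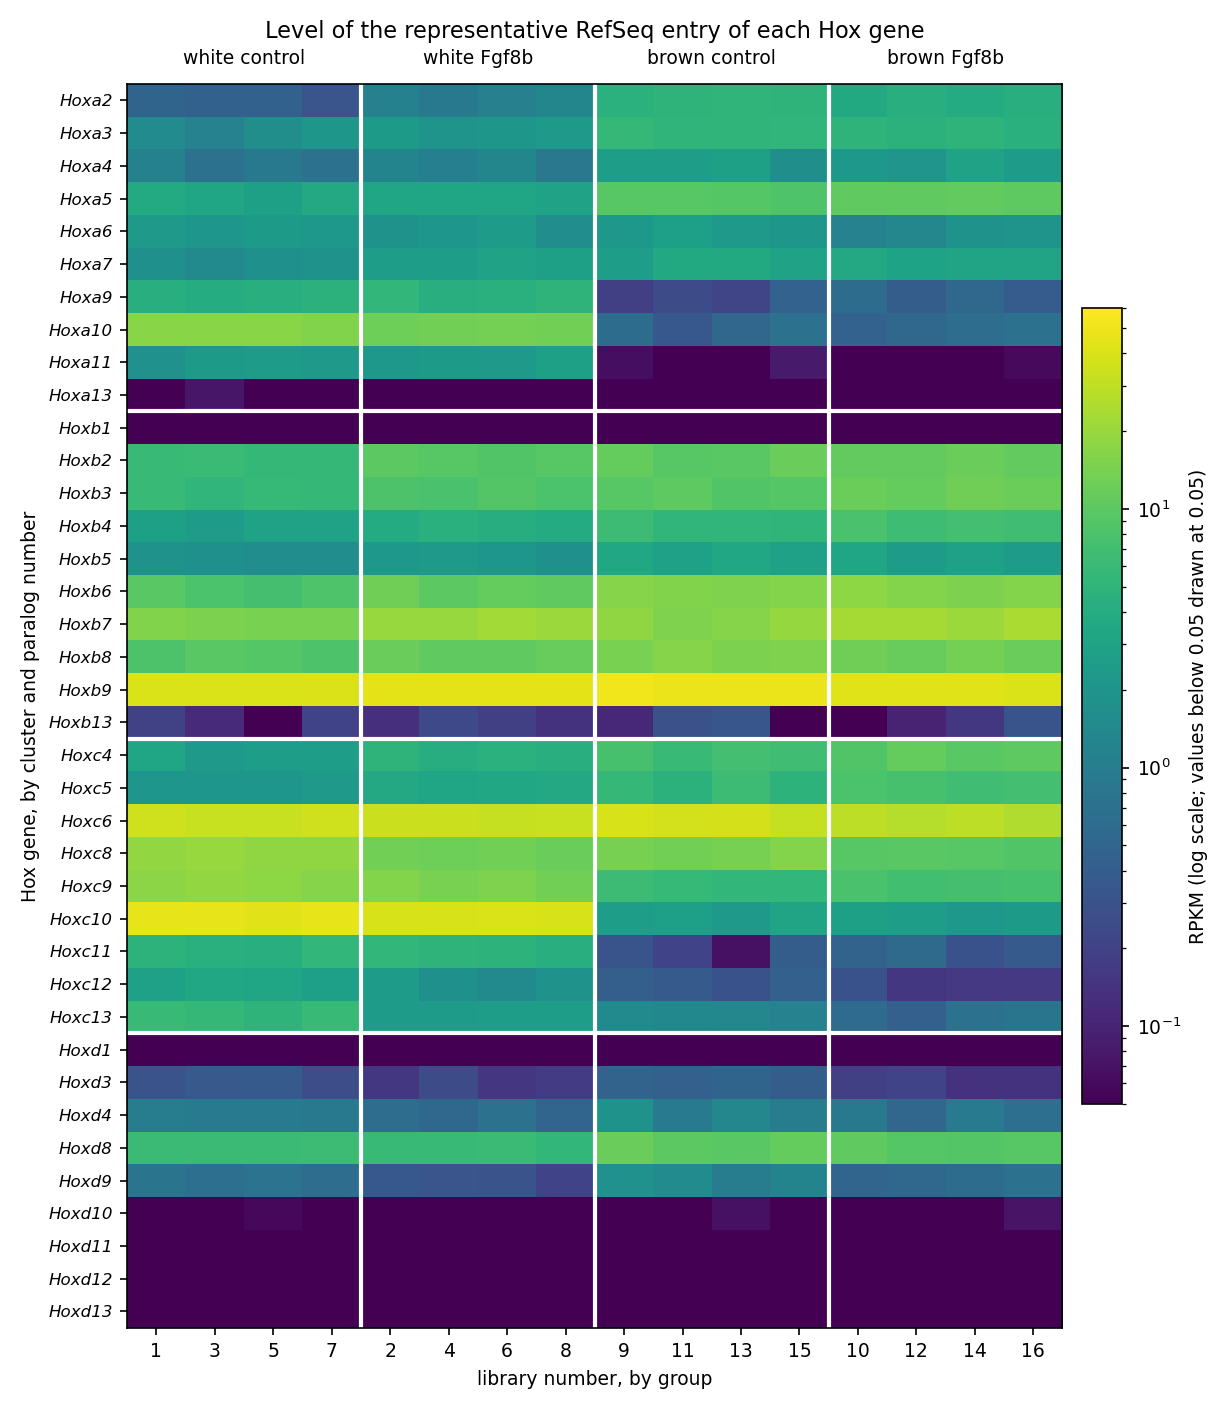
Level of 38 of the 39 Hox genes (rows, by cluster and paralog number) in each of the 16 libraries (columns, by group), as RPKM of the representative RefSeq entry on a logarithmic colour scale; values below 0.05 are drawn at 0.05. The rows of Hoxa9, Hoxa10, Hoxa11 and the Hoxc genes from 10 to 13 are each brighter in white than in brown libraries, and Hoxd10 to Hoxd13 are dark throughout.

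The summed level of all 39 genes was 260.4 to 272.4 RPKM in white control and 240.2 to 255.0 RPKM in brown control libraries, a smaller gap than in its makeup. Paralogs 9 to 13 supplied 52.0 to 53.7% of it in white control cells and 25.2 to 25.9% in brown control cells. In the Hoxa cluster that share was 66.1 to 70.2% in white control and 2.06 to 4.70% in brown control libraries. In the Hoxc cluster it was 56.3 to 57.8% against 12.5 to 14.9%. The Hoxb cluster supplied 33.2 to 33.4% of all Hox RPKM in white control cells and 51.2 to 53.2% in brown control cells, and the Hoxc cluster 50.1 to 51.0% and 29.5 to 31.1%. In these bulk samples fewer expressing cells and less RNA per cell cannot be told apart. Hoxc10, at 45.7 ± 1.16 RPKM (SD, n = 4), was the most abundant Hox gene of white control cells, ahead of Hoxb9 at 40.2 ± 0.762 RPKM, and the ranges of these neighbours in the order did not overlap. Brown control cells were led by Hoxb9 at 49.7 ± 1.59 RPKM, followed by Hoxc6 at 36.8 ± 2.87 RPKM, also without overlap.

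Between depots under control treatment, the 5′ genes of the Hoxa and Hoxc clusters were lower in brown cells and most 3′ genes of the Hoxa, Hoxb and Hoxc clusters were higher. Differences were tested with limma on log2(RPKM + 0.5) summed over a gene's entries, and a gene was called at a Benjamini-Hochberg adjusted p under 0.05 over all 15222 genes tested. Of the 32 Hox genes tested, 25 were called, 16 higher and 9 lower in brown cells, where 33.9% of all genes tested were called, 18.1% higher and 15.9% lower. Among the 21 tested genes of paralogs 1 to 8, 14 were higher and 1, Hoxc8, was lower. The median log2 difference of these genes was 0.79. Among the 11 of paralogs 9 to 13, 2 were higher, Hoxb9 and Hoxd9, and 8 were lower, with a median of -2.37. The median over all genes tested was 0.00. Hoxa11 had passed the minimum through white libraries only, so its difference was fixed by the choice of tested genes.

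Hoxc10, a gene of the lumbar body region that is used as a marker of white subcutaneous fat, had RPKM of 46.6, 46.1, 44.0 and 46.2 in white control libraries. In brown control libraries it was listed at 2.59, 2.71, 2.23 and 3.16. All white values lay far above all brown values (log2 difference -4.03, SE 0.0834, adjusted p = 1.39e-16). Hoxa10, which patterns the lumbar vertebrae and the uterus, showed the most negative difference of the tested members on the log2(RPKM + 0.5) scale, which understates low genes such as Hoxa11. It had 16.95, 17.1, 16.95 and 15.5 RPKM in white control and 0.606, 0.352, 0.522 and 0.7204 RPKM in brown control libraries. The groups were far apart, with the highest brown value in brown control 15 (log2 difference -4.81, SE 0.146, adjusted p = 1.89e-14). Its neighbour Hoxa9 had 4.42, 4.03, 4.39 and 4.81 RPKM in white and 0.192, 0.251, 0.221 and 0.466 RPKM in brown control libraries. Again brown control 15 stood highest among brown libraries, and well under the white ones (log2 difference -3.77, SE 0.1402, adjusted p = 3.30e-13).

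Hoxa11, which patterns the forearm and lower leg, had 1.79, 2.41, 2.50 and 2.34 RPKM in white control and 0.0649, 0.0282, 0 and 0.0833 RPKM in brown control libraries. These correspond to 369 reads against 6 reads over 4 libraries each, a ratio per depth of 52.5 (95% interval 23.9 to 144, counting error only). Hoxc11 had 4.96, 4.48, 4.42 and 5.49 RPKM in white and 0.318, 0.208, 0.0685 and 0.408 RPKM in brown control libraries. That is 318 against 14 reads, a ratio of 19.4 (11.4 to 35.9, counting error only), with a log2 difference of -3.36 (SE 0.151, adjusted p = 3.84e-12). At the 5′ end of the cluster Hoxc12 had 3.06 ± 0.303 RPKM in white and 0.387 ± 0.0665 RPKM in brown control cells (log2 difference -2.37), and Hoxc13, a gene of hair and nail formation, 5.63 ± 0.400 RPKM and 1.34 ± 0.141 RPKM (log2 difference -1.74). Hoxc13 kept a measurable level in brown cells, 1.15 to 1.496 RPKM, on 45 to 52 reads per library. Hoxc9, which marks the thoracic spinal cord and is also used as a marker of white fat, was closer between depots. Its level was 17.4, 18.9, 17.8 and 16.8 RPKM in white control and 6.48, 5.78, 5.44 and 5.43 RPKM in brown control libraries (log2 difference -1.58, SE 0.0613, adjusted p = 5.75e-13). Along the Hoxc cluster the log2 difference ran from 1.27 at Hoxc5 through 0.06 at Hoxc6, which was not called, and -0.39 at Hoxc8 to -1.58 at Hoxc9 and -4.03 at Hoxc10. On this scale it was -3.36 at Hoxc11, where low levels in brown cells understate it, -2.37 at Hoxc12 and -1.74 at Hoxc13.

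**Figure D2:**
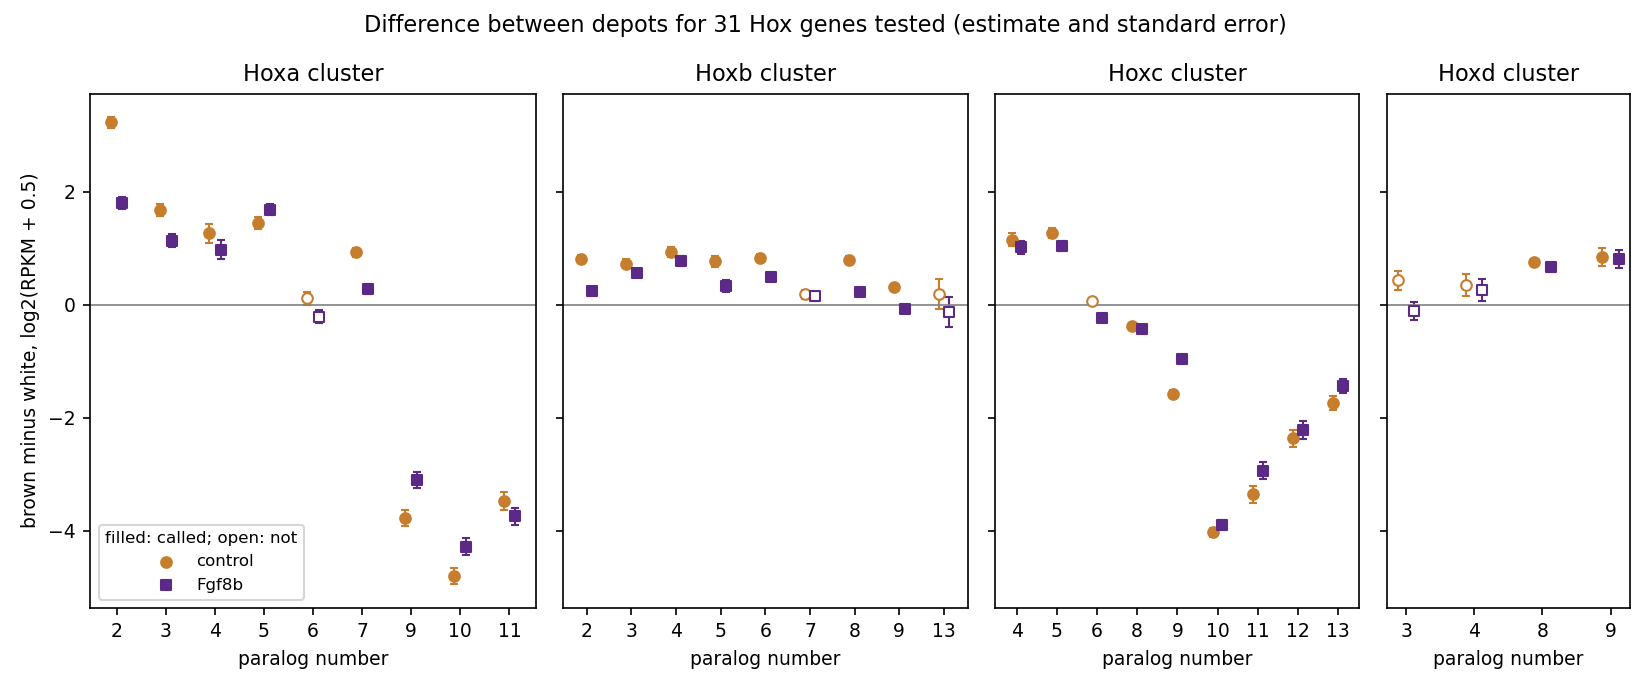
Difference between brown and white cells, as brown minus white on the log2(RPKM + 0.5) scale with its standard error, for 31 of the 32 tested Hox genes by cluster and paralog number, under control (circles) and Fgf8b (squares); filled symbols passed the adjusted p threshold. Under control the sign changed between paralogs 7 and 9 in the Hoxa cluster and between 6 and 8 in the Hoxc cluster, while under both treatments the Hoxb genes stayed within 1 log2 unit of 0.

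Members higher in brown cells were led by Hoxa2, the selector gene of the second pharyngeal arch. It had 0.494, 0.451, 0.449 and 0.328 RPKM in white control and 4.63, 4.97, 5.22 and 4.96 RPKM in brown control libraries. All brown values lay above all white values (log2 difference 3.22, SE 0.0993, adjusted p = 2.19e-14). Hoxa3, needed for the thymus and parathyroid, had 1.63 ± 0.406 RPKM in white and 5.32 ± 0.203 RPKM in brown control cells (log2 difference 1.68). Hoxa5, which acts in the neck vertebrae and the lung, had 3.85, 3.21, 2.85 and 3.59 RPKM in white and 9.38, 9.45, 9.32 and 8.63 RPKM in brown control libraries (log2 difference 1.44, SE 0.0999, adjusted p = 1.70e-09). Hoxa4 had 0.866 ± 0.191 RPKM in white and 2.44 ± 0.499 RPKM in brown control cells (log2 difference 1.26), and Hoxa7 1.71 ± 0.146 RPKM and 3.24 ± 0.555 RPKM (0.92). Between them Hoxa6 was not called, 2.25 ± 0.124 RPKM against 2.34 ± 0.263 RPKM (log2 difference 0.11, adjusted p = 0.486). At the 3′ end of the Hoxc cluster, Hoxc4 had 3.29, 2.29, 2.64 and 2.67 RPKM in white and 7.52, 6.04, 7.24 and 6.88 RPKM in brown control libraries. The groups did not overlap (log2 difference 1.15, adjusted p = 1.53e-07). Hoxc5 had 2.13 ± 0.102 RPKM against 5.42 ± 0.718 RPKM (log2 difference 1.27), although 5.37% of its exonic bases are shared with Hoxc10, which was lower in brown cells.

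Hoxb genes differed little and in 1 direction, 7 of the 9 tested being higher in brown control cells and 2, Hoxb7 and Hoxb13, not called. Their log2 differences ran from 0.30 (Hoxb9) to 0.93 (Hoxb4) among those called. Hoxb4, known for expanding blood stem cells, had 2.79, 2.52, 2.99 and 2.97 RPKM in white and 6.44, 5.38, 5.304 and 5.22 RPKM in brown control libraries. Hoxb9, a gene of rib and mammary gland patterning, had 39.8, 40.1, 39.6 and 41.3 RPKM in white and 52.03, 49.1, 49.3 and 48.4 RPKM in brown control libraries. Although small, its difference was larger than the spread within groups (log2 difference 0.30, SE 0.0321, adjusted p = 5.44e-07). It was thus the only called member of paralogs 9 to 13 outside the Hoxd cluster that was higher in brown cells. Hoxb7 had 14.9 ± 0.686 RPKM and 17.5 ± 2.03 RPKM (log2 difference 0.18, adjusted p = 0.0818), and on the representative entry alone it was called higher in brown cells (0.22, adjusted p = 0.0411). In the Hoxd cluster Hoxd8 had 6.35 ± 0.0812 RPKM in white and 10.7 ± 1.05 RPKM in brown control cells (log2 difference 0.75, adjusted p = 2.55e-08). Hoxd9 had 0.761, 0.674, 0.745 and 0.631 RPKM in white and 1.802, 1.54, 1.02 and 1.22 RPKM in brown control libraries, the opposite direction to its paralogs Hoxa9 and Hoxc9 (log2 difference 0.84, adjusted p = 4.13e-04). Hoxc6, the brachial counterpart of Hoxc9 in the spinal cord, was abundant in both depots, 34.2 ± 1.61 RPKM and 36.8 ± 2.87 RPKM, with overlapping libraries and an adjusted p of 0.451.

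**Figure D3:**
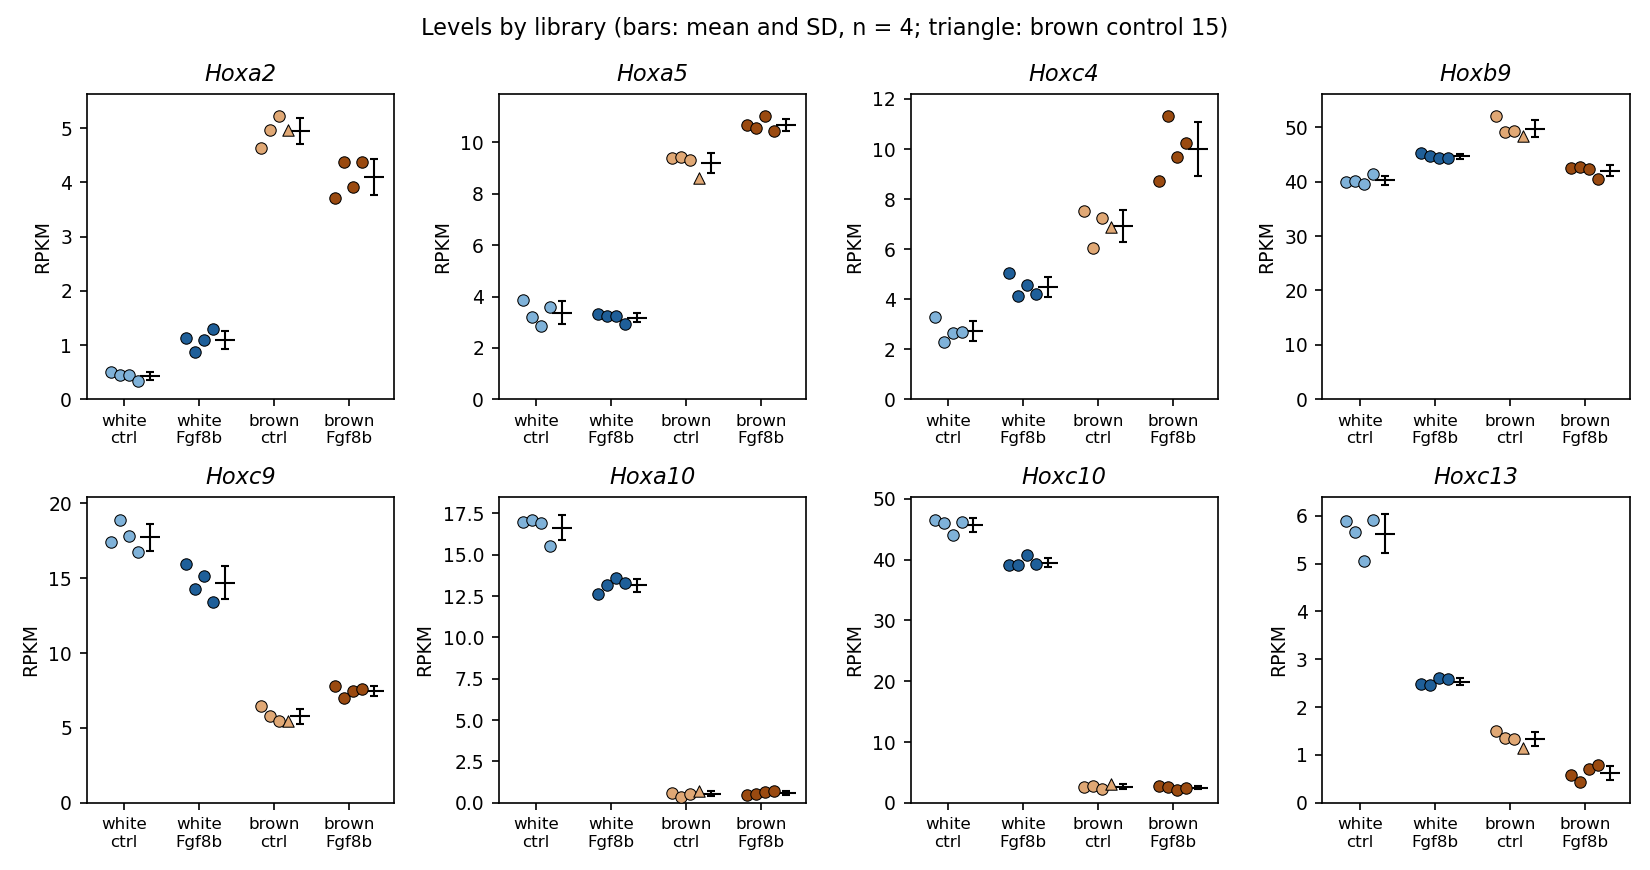
RPKM of the representative RefSeq entry of 8 Hox genes in each library (points), with the mean and SD of each group of 4 (bars); the triangle is brown control 15. Hoxa2, Hoxa5 and Hoxc4 are higher in brown groups, Hoxc9, Hoxa10, Hoxc10 and Hoxc13 are lower, and Hoxb9 rises with Fgf8b in white and falls with it in brown cells.

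Under Fgf8b the depots differed in the same direction for most members, with some 3′ genes closer together. Of the 32 tested genes 27 were called, 15 higher and 12 lower in brown cells, where 51.6% of all genes were called, 26.9% higher and 24.7% lower. Hoxc10 had 39.1, 39.1, 40.7 and 39.2 RPKM in white and 2.84, 2.601, 2.18 and 2.38 RPKM in brown Fgf8b libraries, again without overlap (log2 difference -3.90, adjusted p = 4.89e-16). Hoxa10 had 12.6, 13.1, 13.6 and 13.3 RPKM and 0.463, 0.553, 0.634 and 0.725 RPKM (log2 difference -4.28). The depot difference of Hoxa2 was 1.80 under Fgf8b against 3.22 under control. Hoxc6 was lower in brown cells under Fgf8b (log2 difference -0.25, adjusted p = 0.00132). Hoxb9 changed direction, 44.6 ± 0.455 RPKM in white and 42.03 ± 1.03 RPKM in brown Fgf8b cells (log2 difference -0.09, adjusted p = 0.0338). Calls of 3 genes ended when 1 library was left out: Hoxb5 without white Fgf8b 8 or brown Fgf8b 10 (adjusted p of 0.0531 and 0.0626), Hoxb8 without white Fgf8b 4 or 6 or brown Fgf8b 14 (0.0567 to 0.0721), and Hoxb9 without white Fgf8b 2, 4 or 6 or brown Fgf8b 14 or 16 (0.0600 to 0.101). On its representative entry alone the call of Hoxa7 was lost too (adjusted p = 0.150).

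Fgf8b changed Hox genes in both depots, with 5 genes of the Hoxb and Hoxc clusters rising in both and 6 genes of the Hoxc and Hoxd clusters falling in both. In white cells 23 of the 32 genes were called, 14 higher and 9 lower, where 65.7% of all genes tested were called, 36.3% higher and 29.5% lower. In brown cells 21 were called, 9 higher and 12 lower, where 71.4% were called, 36.7% higher and 34.7% lower. The share of Hox genes called was thus near that of all genes. The depots share no library in these comparisons, and over the 32 genes the Pearson correlation of the responses was 0.64, given as a description. The share of all genes called in the same direction in both depots is not given here, nor is the correlation over all genes. The counts of genes that rose or fell in both are therefore descriptions too.

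Hoxb3, Hoxb4, Hoxb7, Hoxc4 and Hoxc5 rose in both depots. Hoxc4 had 5.04, 4.12, 4.59 and 4.21 RPKM in white Fgf8b and 8.73, 11.3, 9.67 and 10.2 RPKM in brown Fgf8b libraries, above every control library of its depot (log2 differences 0.61 and 0.47, adjusted p = 8.32e-05 and 8.58e-04). Hoxc5 rose from 2.13 ± 0.102 RPKM to 3.52 ± 0.145 RPKM in white and from 5.42 ± 0.718 RPKM to 7.399 ± 0.552 RPKM in brown cells (log2 differences 0.68 and 0.44). Hoxb3 rose by 0.54 and 0.37, Hoxb4 by 0.52 and 0.36, and Hoxb7 by 0.46 and 0.42 on the log2 scale in white and brown cells.

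Genes that fell in both depots were Hoxc8, Hoxc12, Hoxc13, Hoxd3, Hoxd4 and Hoxd9. The fall of Hoxc12 in brown cells (log2 difference -0.51, adjusted p = 0.00658) rests on 20 against 10 reads, a ratio of control to Fgf8b of 1.96 whose 95% interval for counting error, 0.877 to 4.69, includes 1. Hoxc8, which specifies lower thoracic vertebrae and motor neurons, had 19.2, 19.98, 18.6 and 18.6 RPKM in white control and 13.1, 12.4, 13.2 and 11.9 RPKM in white Fgf8b libraries. In brown cells the values were 13.98, 13.4, 14.03 and 16.3 RPKM in control and 9.42, 9.78, 9.63 and 8.85 RPKM in Fgf8b libraries. Treated and control libraries did not overlap in either depot (log2 differences -0.59 and -0.64, adjusted p = 1.06e-07 and 3.32e-08). Hoxc13 had 5.89, 5.65, 5.06 and 5.92 RPKM in white control and 2.48, 2.46, 2.61 and 2.595 RPKM in white Fgf8b libraries. In brown cells it had 1.496, 1.35, 1.34 and 1.15 RPKM in control and 0.591, 0.436, 0.704 and 0.783 RPKM in Fgf8b libraries (log2 differences -1.01 and -0.71, adjusted p = 5.56e-07 and 3.67e-05). Hoxd9 was lower by similar steps, 0.703 ± 0.0611 RPKM to 0.298 ± 0.0645 RPKM in white and 1.39 ± 0.348 RPKM to 0.594 ± 0.0929 RPKM in brown cells (log2 differences -1.02 and -1.07). Hoxd3 fell from 0.328 ± 0.0502 RPKM to 0.184 ± 0.0465 RPKM in white cells, on 69 and 39 reads over 4 libraries, and from 0.454 ± 0.0401 RPKM to 0.171 ± 0.0342 RPKM in brown cells, on 81 and 30 reads (log2 differences -0.69 and -1.24). Hoxd3 and Hoxd4 share annotated exon sequence, 9.26% of the exonic bases of Hoxd3 and 13.2% of those of Hoxd4, so their reads may be split between them. The fall of Hoxd4 in white cells was lost on its representative entry (adjusted p = 0.0540).

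The response differed between depots for 12 genes by the test of the difference itself, brown minus white, 2 with a positive and 10 with a negative difference, where 34.9% of all genes tested were called, 17.1% positive and 17.8% negative. In either direction 37.5% of the tested Hox genes were called, near the share of all genes. Hoxa2 differed most. It rose in white cells, from the control values above to 1.13, 0.873, 1.09 and 1.29 RPKM, and was 3.72, 4.38, 3.91 and 4.37 RPKM in brown Fgf8b libraries, below every brown control library (log2 changes 1.10 in white and -0.32 in brown, difference -1.42, SE 0.1404, adjusted p = 3.86e-07). On its representative entry alone the fall in brown cells did not pass the threshold (adjusted p = 0.0675). Hoxb8, an immortalising gene of myeloid progenitors, rose from 8.88 ± 0.656 RPKM to 11.2 ± 0.573 RPKM in white and fell from 15.2 ± 0.974 RPKM to 12.5 ± 0.968 RPKM in brown cells (difference -0.58, adjusted p = 2.58e-04). Hoxb9 rose to 45.2, 44.7, 44.3 and 44.3 RPKM in white and fell to 42.5, 42.7, 42.4 and 40.5 RPKM in brown Fgf8b libraries (difference -0.39, SE 0.0455, adjusted p = 2.83e-06).

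Hoxc9 moved the opposite way. It fell to 15.9, 14.3, 15.2 and 13.4 RPKM in white and rose to 7.82, 6.99, 7.49 and 7.604 RPKM in brown Fgf8b libraries, with no overlap with the controls of either depot (log2 changes -0.27 and 0.34, difference 0.61, adjusted p = 2.48e-05). Its ratio between depots was therefore smaller under Fgf8b, with a log2 difference of -0.96 against -1.58. Hoxa9 was the other member with a positive difference (0.67, adjusted p = 0.0133). It had 0.605, 0.409, 0.543 and 0.3895 RPKM in brown Fgf8b libraries against 0.192 to 0.466 RPKM in brown control libraries, which overlapped, on 67 and 40 reads in all. On that entry alone the difference of responses was 0.22 (adjusted p = 0.401). In white cells Hoxa3, Hoxa7, Hoxb2, Hoxb5 and Hoxb6 rose, by 0.26 (Hoxb5) to 0.69 (Hoxa7) on the log2 scale. Their changes in brown cells were between -0.18 and 0.08, none called, and the test of the difference was called for each. Hoxc6 had a log2 change of -0.05 in white, not called, and of -0.35 in brown cells, where it fell from 39.1, 37.2, 38.1 and 32.6 to 29.99, 27.5, 29.5 and 25.8 RPKM (difference -0.31, adjusted p = 0.00587). The calls of Hoxb5 are near the threshold: for its rise in white cells, leaving out any of 5 libraries (white control 5 or 7, white Fgf8b 2, 4 or 6) gave adjusted p of 0.0609 to 0.0998. For its difference of responses, 8 libraries did so (white control 5 and 7, white Fgf8b 2 and 4, brown control 9 and 13, brown Fgf8b 12 and 16), with 0.0505 to 0.0578.

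**Figure D4:**
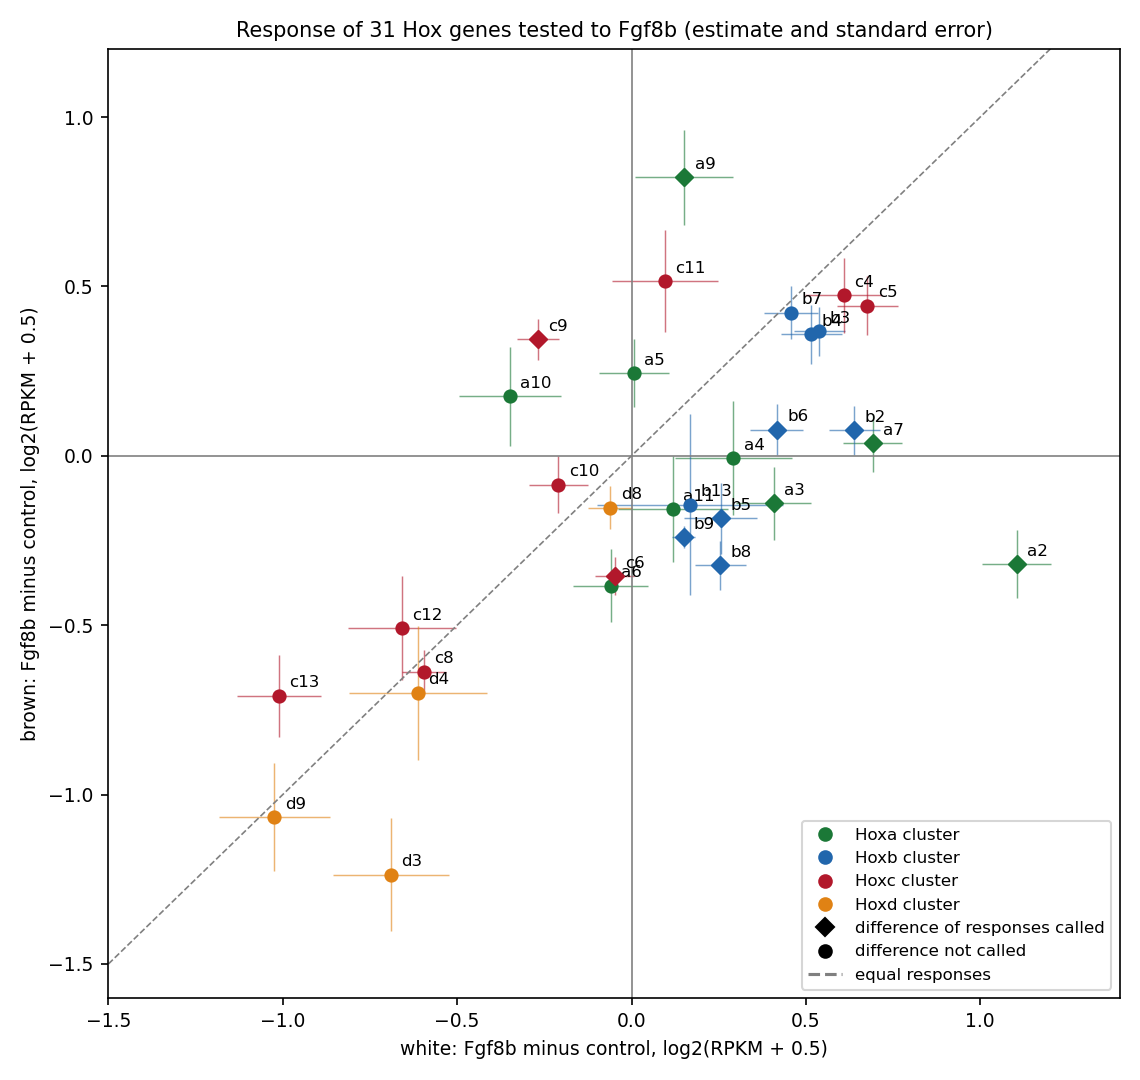
Response to Fgf8b in white cells (horizontal) and brown cells (vertical) of 31 of the 32 tested Hox genes, as log2(RPKM + 0.5) of Fgf8b minus control with standard errors; colours mark clusters, diamonds mark genes whose responses differed between depots, and the dashed line marks equal responses. Hoxc4, Hoxc5, Hoxb3, Hoxb4 and Hoxb7 lie at the upper right, Hoxc8, Hoxc12, Hoxc13, Hoxd3, Hoxd4 and Hoxd9 at the lower left, and Hoxa2 farthest to the right at a white response of 1.10.

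The remaining tested members changed in 1 depot or in none, and for them the difference of responses was not called. In white cells Hoxa10 fell from 16.6 ± 0.759 RPKM to 13.2 ± 0.396 RPKM and Hoxc10 from 45.7 ± 1.16 RPKM to 39.5 ± 0.788 RPKM, without overlap (log2 differences -0.35 and -0.21, adjusted p = 0.0434 and 0.0344). Either call ended when 1 library was left out: Hoxa10 without any white library but control 7 (adjusted p of 0.0571 to 0.0917), and Hoxc10 without white control 1, 3 or 7 or white Fgf8b 2, 4 or 8 (0.0614 to 0.0731). In brown cells Hoxa5 rose to 10.7, 10.6, 11.02 and 10.4 RPKM (log2 difference 0.24, adjusted p = 0.0364) and Hoxc11 to 0.432 ± 0.123 RPKM on 24 reads against 14 (log2 difference 0.52, adjusted p = 0.00523). The libraries overlapped for Hoxc11, and on its representative entry alone the call was lost (adjusted p = 0.0627). Hoxa6 fell there to 1.16, 1.33, 1.86 and 1.95 RPKM from 2.19, 2.72, 2.33 and 2.14 RPKM (log2 difference -0.38, adjusted p = 0.00422). Hoxd8 fell by a smaller step (-0.15, adjusted p = 0.0383). The call of Hoxa5 ended without brown control 15 or brown Fgf8b 10, 12 or 14 (adjusted p of 0.0649 to 0.102), and that of Hoxd8 without brown control 9 or 15 or brown Fgf8b 12, 14 or 16 (0.0671 to 0.142). Hoxa4, Hoxa11 and Hoxb13 were called in neither depot. Hoxa4 had adjusted p of 0.136 in white and 0.971 in brown cells, and Hoxa11 of 0.5298 and 0.383.

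The 7 members that did not reach the minimum were Hoxa13, Hoxb1, Hoxd1, Hoxd10, Hoxd11, Hoxd12 and Hoxd13. Hoxa13 and Hoxd13 pattern the digits and the hindgut, Hoxb1 the hindbrain, and Hoxd10 to Hoxd12 the limb. On the representative entry Hoxd12 was listed at 0 in every library, Hoxd11 in all but brown control 13 (0.0158 RPKM), and Hoxd10 had at most 2 reads in any. Hoxb1 had 1 read in 1 brown control library, and 3 reads over the 4 libraries of that group would have been 0.0234 RPKM. Hoxb13, which acts in the tail and the prostate, lay at the edge. It passed on 6 scattered libraries and had 1 to 7 reads per library, 0.0411 to 0.2101 RPKM in white control and 0.0474 to 0.334 RPKM in brown control libraries.

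Brown control 15 lay outside the range of the other 3 brown controls for 20 of the 32 tested genes, above it for 9 and below it for 11. By chance alone any library of a group is its highest or lowest for many genes. The share over all genes is not given here, so this count is a description. Brown control 15 was above for Hoxa9, Hoxa10, Hoxa11, Hoxb2, Hoxb7, Hoxc8, Hoxc10, Hoxc11 and Hoxc12. Hoxc10, for example, was 3.16 RPKM there and 2.23 to 2.71 RPKM in the others, and Hoxc6 was 32.6 RPKM there and 37.2 to 39.1 RPKM. Without that library all 25 depot calls under control held, with log2 differences of -4.93 for Hoxa10, -4.11 for Hoxc10 and 3.23 for Hoxa2. The difference of responses of Hoxa10 and Hoxb3 became called without it (0.64 and -0.25, adjusted p = 0.0124 and 0.0193).

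Non-coding RNAs are transcribed from the clusters beside the Hox genes. Of 19 names, 11 matched the table, 7 of them by an older symbol, and 9 were tested. Between depots 6 were higher and 2 lower in brown control cells, where 18.1% of all genes tested were higher and 15.9% lower. Hoxa11os, antisense to Hoxa11, had 1.98 ± 0.225 RPKM in white and 0.0454 ± 0.0225 RPKM in brown control cells (log2 difference -4.09). Hoxa11os passed the minimum through white libraries only, so its direction was fixed by the choice of tested genes. Since strand use in counting is not given, its reads and those of Hoxa11 cannot be told apart. Hoxaas2, Hoxb5os and Mira were higher in brown cells, by 2.33, 1.25 and 0.87. Hotair, transcribed between Hoxc11 and Hoxc12, had 0.473 ± 0.0956 RPKM and 0.09402 ± 0.0398 RPKM (log2 difference -1.35). It is named after its values were seen. On this entry its brown control level lay below the minimum of 0.5 RPKM. Hotair may therefore have passed through white libraries only, which would fix its direction by the choice of tested genes. With Fgf8b 3 rose and 1 fell in white cells (Hotairm1 0.70, Mira 0.53, Gm53 -0.37), where 36.3% of all genes tested rose and 29.5% fell. In brown cells 0 rose and 4 fell, among them Hoxb5os (-1.47), Hoxaas2 (-0.85) and Gm53 (-0.65). There 36.7% of all genes tested rose and 34.7% fell.

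Hox proteins bind DNA with TALE homeodomain partners of the Pbx, Meis and Pknox families. A list of 11 TALE genes, of these families and with Tgif1 and Tgif2, was tested in full. In brown against white control cells 1 was higher and 4 lower, where 33.9% of all genes tested were called. Pknox2 was higher (log2 difference 0.75), and Meis1 (-0.42), Pknox1 (-0.29) and Tgif1 (-0.27) were lower. With Fgf8b 3 rose and 5 fell in either depot, where 65.7% of all genes tested were called in white and 71.4% in brown cells. Pknox2 fell by about the same step in white (-1.03) and brown cells (-1.11), as did Pbx4 (-0.99 and -1.01), Meis3 fell by less (-0.52 and -0.43), and Tgif1 rose (0.54 and 1.12). Of the 26 Polycomb genes, whose products silence Hox loci, 2 were higher and 3 lower in brown control cells. Among all genes tested 33.9% were called there. Jarid2 (-0.34), Pcgf2 (-0.24), Cbx6 (-0.21) and Phc3 (0.17) showed the largest called differences, each under 0.5 log2 units. Fgf8b raised 12 and lowered 7 in white cells (Cbx7 -0.87, Cbx6 -0.70, Phc2 0.65, Suz12 0.59), where 36.3% of all genes tested rose and 29.5% fell. It raised 14 and lowered 6 in brown cells (Phc2 1.11, Cbx7 -0.84, Ezh1 -0.77, Suz12 0.70), where 36.7% of all genes tested rose and 34.7% fell. Among 12 Trithorax and H3K27 demethylase genes, which keep Hox loci active, Kmt2d alone was called between depots under control (0.17), against 33.9% of all genes tested. With Fgf8b 6 rose and 2 fell in white cells (Kmt2c -0.80, Dpy30 0.48, Psip1 0.38, Ash2l 0.34), and 8 rose and 2 fell in brown cells (Kmt2c -0.75, Kdm6b -0.71, Dpy30 0.66, Wdr5 0.52). Of all genes tested 36.3% rose and 29.5% fell in white, and 36.7% rose and 34.7% fell in brown cells.

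Upstream of the clusters in the embryo act retinoic acid, Cdx factors and Gdf11. Cdx2 and Cdx4 were listed at 0 in every library, and 10 of 15 genes of this list were tested. In brown against white control cells 6 were higher and 1 lower, against 18.1% and 15.9% of all genes tested. The retinaldehyde dehydrogenases Aldh1a1, Aldh1a2 and Aldh1a3, which make retinoic acid, were higher, by 0.61, 1.15 and 1.01, and the receptor gene Rarb was lower (-0.33). With Fgf8b Aldh1a1 fell from 9.36 ± 0.904 RPKM to 0.224 ± 0.0759 RPKM in white cells and from 14.5 ± 0.498 RPKM to 0.425 ± 0.0418 RPKM in brown cells. Rarb rose by 1.94 and 2.69, Aldh1a3 had log2 changes of -1.86 and -2.63, Rdh10 rose by 1.53 and 1.62, and Aldh1a2 had -1.02 and -2.14, in white and brown cells. In all 5 rose and 5 fell in white, and 4 rose and 5 fell in brown cells, where 65.7% and 71.4% of all genes tested were called. Other position-bearing transcription factors were compared too, 31 of 35 being tested, of which 9 were higher and 17 lower in brown control cells, against 18.1% higher and 15.9% lower among all genes tested. Zic1, a dorsal somite gene and a marker of brown fat, was 0.176 ± 0.0497 RPKM in white and 12.8 ± 0.468 RPKM in brown control cells. Six2 was higher in brown cells (3.36), and Pitx1, a hind limb gene, was 2.56 ± 0.174 RPKM in white and listed at 0 in all brown libraries. On that entry Pitx1 could pass the minimum through white libraries only, so its direction was fixed by the choice of tested genes. It is among the 17 lower. With Fgf8b the largest called changes of this list were in Prrx2 (-2.06), Irx3 (-1.93), Meox2 (-1.57) and Irx1 (-1.13) in white cells and in Prrx2 (-2.43), Meox2 (-1.78), Irx1 (-1.53) and Twist2 (1.05) in brown cells.

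Genes that flank the clusters were looked at in the same comparison. The 4 protein-coding genes to either side of each cluster were taken from RefSeq order, after the Hox values were known, which gave 32 genes, 26 of them tested. In brown against white control cells 7 were higher and 3 lower, a share near the 33.9% called among all genes tested, with a median log2 difference of 0.01 and a range of -1.16 (Nfe2, beyond Hoxc4) to 0.74 (Skap1, beyond Hoxb1, not called). Skap2, at the 3′ side of the Hoxa cluster, was higher in brown cells by 0.41, and Hibadh, 2 genes beyond Hoxa13, by 0.05, not called. Calcoco1, next to Hoxc13, had -0.24 and Smug1, next to Hoxc4, -0.03, not called. Evx1 and Evx2, homeobox genes at the 5′ ends of the Hoxa and Hoxd clusters, averaged 0.00550 RPKM or less in brown control and were listed at 0 in white control libraries. The change from Hoxa7 (log2 difference 0.92) to Hoxa9 (-3.77) and that from Hoxc6 (0.06) to Hoxc9 (-1.58) lay inside the clusters.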

How the data were processed

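Total RNA of 16 libraries was sequenced after TruSeq library preparation, per the labels' protocols. CASAVA and bcl2fastq are named in the submitters' processing notes. The aligner, genome build, strand setting and the handling of reads shared between paralogs were not given in the sources used here. The authors deposited RPKM per transcript for 168326 entries. Entries without a symbol (23172, 13.8%) and 299 repeated accessions (808 entries) were left out, and the remaining 144549 entries were summed by symbol, so a read can count more than once in a gene. Genes at 0.5 RPKM or more in at least 4 libraries (15222) were tested on log2(RPKM + 0.5) with limma 3.58.1 (R 4.3.3), with trend and robust settings, over all 16 libraries, with Benjamini-Hochberg adjustment at 0.05. The fold change of low genes is understated on this scale. Printed levels and overlap of groups refer to the most abundant RefSeq entry. Read counts were recovered from the step size of low values, of which 95.6 to 96.0% lay within 0.1 of a whole read. Intervals are 95% exact and cover counting error only.

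The members and companion lists were chosen with earlier results of these data known. From each companion list the called genes with the largest change, up to 4 with at least 1 RPKM, are named for the depot comparison under control and for both Fgf8b comparisons. The fit was tested on simulated data. Other pseudocounts, filters, scalings, entry choices and left-out libraries were tried. The values of 1 member and of 1 companion gene are not reported here; both stayed in the fit and the counts.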

Additional observations from a re-analysis of the deposited data

Results flagged for a closer look

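In 9 of 128 combinations of a tested Hox gene and a group, 1 library stood apart from the other 3 by Dixon's criterion, which chance alone meets in about 1 in 20. Hoxa5 was 8.63 RPKM in brown control 15 and 9.32 to 9.45 RPKM in the others of its group. Hoxb4 was 6.44 RPKM in brown control 9 against 5.22 to 5.38 RPKM. White control 7 was low for Hoxa10 (15.5 RPKM against 17.0 to 17.1 RPKM) and high for Hoxc5 (2.28 RPKM against 2.06 to 2.09 RPKM). In white Fgf8b cells Hoxc10 was 40.7 RPKM in library 6 against 39.1 to 39.2 RPKM, and Hoxd3 was 0.253 RPKM in library 4 against 0.154 to 0.171 RPKM. In brown Fgf8b cells Hoxb2 was 11.97 RPKM in library 14 against 10.94 to 11.03 RPKM, Hoxb9 was 40.5 RPKM in library 16 against 42.4 to 42.7 RPKM, and Hoxc12 was 0.297 RPKM in library 10 against 0.157 to 0.163 RPKM.

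The response to Fgf8b differed between depots in 12 Hox genes by the limma test of the difference, of which 11 are given here. The share of tested Hox genes called, 37.5%, was near the 34.9% of all genes tested. As brown minus white on the log2 scale the difference was -1.42 for Hoxa2, -0.55 for Hoxa3, -0.65 for Hoxa7 and 0.67 for Hoxa9. In the Hoxb cluster it was -0.56 for Hoxb2, -0.44 for Hoxb5, -0.34 for Hoxb6, -0.58 for Hoxb8 and -0.39 for Hoxb9. It was -0.31 for Hoxc6 and 0.61 for Hoxc9.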

How the results depend on the processing

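None of the Hox calls changed direction under any alternative run. With 1 library left out at a time, the number of Hox genes called was 25 to 26 between depots under control, 25 to 27 between depots under Fgf8b, 20 to 23 for Fgf8b in white cells, 19 to 21 for Fgf8b in brown cells and 11 to 14 for the difference of responses. All 25 depot calls under control passed the threshold in all 700 values recomputed for them. Under Fgf8b, 738 of 756 depot values did so, the exceptions being of Hoxa7, Hoxb5, Hoxb8 and Hoxb9. For Fgf8b in white cells 612 of 641 values did (exceptions Hoxa10, Hoxb5, Hoxc10 and Hoxd4), in brown cells 567 of 585 (Hoxa2, Hoxa5, Hoxc11 and Hoxd8), and for the difference of responses 308 of 324 (Hoxa9, Hoxb5 and Hoxb6). Using the representative RefSeq entry in place of the sum, an alternative chosen after seeing the data, ended 11 calls, and testing with no filter ended 9. No paired analysis was possible because the groups share no replicate numbers and the labels name no other pairing. Depth limits the genes with few reads, such as Hoxa11, with 6 reads over the brown control libraries, and Hoxb13, with 1 to 7 reads per library.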
